A study of Mus musculus with 4 samples.

Results

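Genes that cells switch on to copy and divide their chromosomes were examined in mouse aortas with and without Smad4 in smooth muscle. The set held 38 genes named by symbol, 12 with roles in DNA replication (S-phase members) and 26 with roles in mitosis (mitotic members). The members were every probe set, that is every group of short probes read as 1 signal, paired with exactly 1 of these symbols. In all, 37 genes had such a probe set (88 probe sets, out of 34945 probe sets naming 18193 genes). The expression of Ccnb1, the gene of cyclin B1, was not analysed here, and its promoter is among those searched below. All 12 S-phase and 25 mitotic genes with a probe set passed the filter on low signal described next. Bub1b, Cdc6 and Tyms did so only through their Smad4-KO arrays. Their WT means (log2 5.59, 5.36 and 5.21) lay below its cut (5.64).

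The arrays carried RNA of whole aortas from mice aged 6 weeks. Mice lacking Smad4 specifically in smooth muscle (Smad4-KO) were set against wild-type littermates (WT), with 2 Affymetrix arrays per genotype and 400 ng of RNA per array. Every array held a pool of 3 to 5 vessels, and the replicates are biological according to the labels. The promoter that drove the deletion is not given in the sources used here. Signals are on a linear scale, each array scaled to the same trimmed mean. Differences between genotypes are on the log2 scale, Smad4-KO minus WT, and a value after ± is the standard error from limma over 2 and 2 arrays. A gene was read from its brightest probe set. Genes below the 25th percentile of mean log2 signal over the 4 arrays were left out, which left 13645. A gene passed at an adjusted p below 0.05. Precision is limited by having 4 arrays.

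The cell cycle runs through a phase of DNA synthesis (S phase) and a phase of chromosome separation (mitosis). E2F factors switch on the replication genes, and later the B-Myb-MuvB complex with FoxM1 switches on the mitotic genes through short promoter elements, the CHR and, often nearby, CCAAT boxes. In resting cells the DREAM complex keeps both sets silent. Smooth muscle of a grown aorta divides little, and TGF-beta signalling through Smad4 is known to restrain division in many cell types. In whole tissue, more dividing cells and more RNA of these genes per cell cannot be told apart.

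The promoters of the members showed these elements. Of the 38 listed genes, 31 had a promoter in the RefSeq table (build GRCm38.p6, 33 promoters, 300 bases each, 250 of them before the start). Both strands were searched for CCAAT, for TTTGAA as the CHR element, and for the E2F motif as TTCCCGC or as TTGGCGC or as TTCGCGC or as TTGCCGC. Matches of the E2F letters may overlap each other. The CHR letters stood in 17 of 22 mitotic promoters (77.3%), in 1 of 11 S-phase promoters (9.09%) and in 17.9% of all 32851 promoters of this length. CCAAT stood in 19 of 22 mitotic promoters (86.4%), 9 of 11 S-phase promoters (81.8%) and 37.4% of all. The E2F letters stood in 8 of 11 S-phase promoters (72.7%), 4 of 22 mitotic promoters (18.2%) and 9.57% of all. A match is a run of letters, and binding was not measured.

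Shown are the 120 bases before the start of 4 mitotic and 2 S-phase genes, chosen because they carry the elements close to the start, with CCAAT, CHR and E2F letters in capitals on either strand. Top2a lies at chr11:99024190-99024309 (minus strand), Cdk1 at chr10:69352913-69353032 (minus), Ube2c at chr2:164769809-164769928 (plus), Kif11 at chr19:37376262-37376381 (plus), Rrm1 at chr7:102441575-102441694 (plus) and Mcm6 at chr1:128359706-128359825 (minus).
Top2a: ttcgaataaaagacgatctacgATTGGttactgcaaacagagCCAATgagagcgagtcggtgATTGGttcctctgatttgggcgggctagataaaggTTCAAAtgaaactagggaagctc
Cdk1: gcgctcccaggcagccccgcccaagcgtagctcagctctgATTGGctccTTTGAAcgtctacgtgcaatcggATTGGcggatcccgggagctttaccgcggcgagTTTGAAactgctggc
Ube2c: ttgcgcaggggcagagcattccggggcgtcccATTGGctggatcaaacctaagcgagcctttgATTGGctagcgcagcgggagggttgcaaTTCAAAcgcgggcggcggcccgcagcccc
Kif11: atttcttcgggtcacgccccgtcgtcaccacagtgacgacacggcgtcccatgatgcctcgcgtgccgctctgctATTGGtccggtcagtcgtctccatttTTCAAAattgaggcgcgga
Rrm1: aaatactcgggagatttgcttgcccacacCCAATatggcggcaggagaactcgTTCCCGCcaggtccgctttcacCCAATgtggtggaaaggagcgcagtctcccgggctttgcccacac
Mcm6: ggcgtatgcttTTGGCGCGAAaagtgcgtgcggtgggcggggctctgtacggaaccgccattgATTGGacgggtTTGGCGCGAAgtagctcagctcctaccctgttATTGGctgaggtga
CCAAT reads ATTGG, and the CHR letters TTCAAA, on the other strand. In the 4 mitotic promoters shown, the CHR letters nearest the start begin 15 to 29 bases before it, and the nearest CCAAT letters 45 to 58 bases before it. In Rrm1 and Mcm6, E2F letters stand among CCAAT letters and no CHR letters were found in these windows.

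Facts of the arrays that touch these genes come before the results. Smad4 itself read 4394 and 3819 in WT, against 2676 and 3580 in Smad4-KO, lower on both but short of the threshold (-0.40 ± 0.32, adjusted p = 0.626). Whether its probe set lies in the deleted part is not given in the sources used here, and one outside it would check nothing. The labelling controls paired the arrays across genotypes: beta-actin had a 3' to 5' ratio of 11.4 in WT replicate 1 and of 12.8 in Smad4-KO replicate 2, and of 4.19 and 2.83 in the other arrays. Contractile smooth muscle markers were present, and 5 of 10 fell in Smad4-KO (median difference -2.08). Macrophage markers passed as higher in 7 of 10, with summed signals of 9799 to 14642 in WT and 57002 to 72788 in Smad4-KO. Over all genes tested the median difference was -0.01, and 4.92% passed as higher and 1.39% as lower.

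Mitotic genes read higher in the Smad4-KO aortas. The median log2 difference of the 25 mitotic members was 1.38, against -0.01 for all 13645 genes tested, and 24 of the 25 differences were positive (49.7% of all genes). Top2a, Cdk1 and Mki67 rose, by 3.37-fold, 3.72-fold and 3.66-fold. For S-phase members the median was 0.66, with 10 of 12 differences positive and 0 past the threshold in limma (3 had an unadjusted p under 0.05). The difference between these medians was not tested.

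Counts were read against all genes. Of the mitotic members 3 of 25 passed as higher and 0 as lower, where 4.92% of all genes passed as higher, 1.39% as lower and 6.31% in either direction. At an unadjusted p under 0.05, 19 of 25 mitotic members were higher, and 13.1% of all genes. Both Smad4-KO arrays lay above both WT arrays for 23 of 25 mitotic and 9 of 12 S-phase members, and for 25.9% of all genes tested. They lay below both for 1 mitotic and 0 S-phase members, and for 21.4% of all genes. A log2 difference of at least 1 was measured for 20 of 25 mitotic members, 3 of 12 S-phase members and 13.4% of all genes. At an adjusted p under 0.10, 12 mitotic and 2 S-phase members were higher, and 7.75% of all genes.

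**Figure D1:**
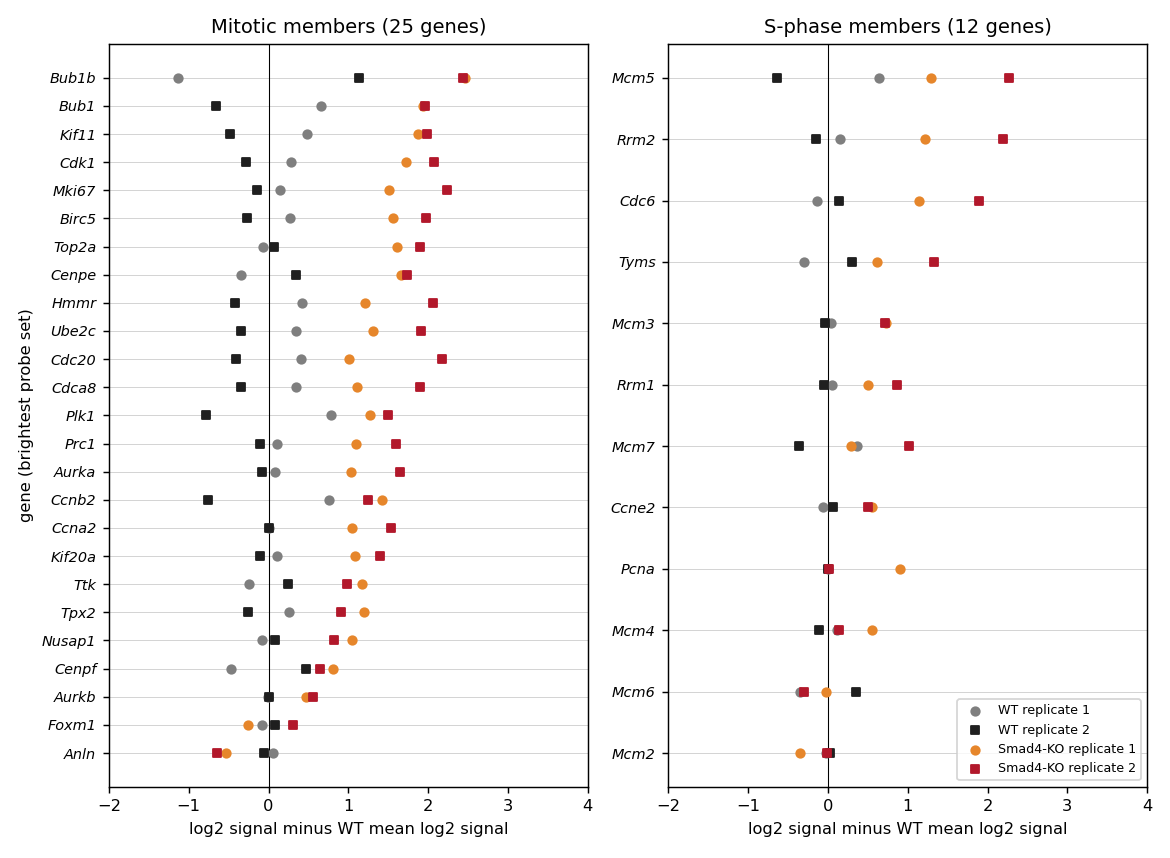
Signal of each member gene on each array, as log2 signal minus the gene's mean log2 signal in WT, for 25 mitotic (left) and 12 S-phase genes (right). Grey and black points are the WT arrays, orange and red points the Smad4-KO arrays. Both Smad4-KO points lie right of both WT points for 23 mitotic and 9 S-phase genes, and Anln lies to the left.

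Genes that mark dividing cells rose in the Smad4-KO aortas. Top2a, the topoisomerase that untangles sister chromosomes, read 269 and 296 in WT, compared with 865 and 1051 in Smad4-KO. The groups stood well apart, and the log2 difference was 1.75 ± 0.30 (95% interval 0.99 to 2.52, adjusted p = 0.0353). On a dimmer Top2a probe set, reading 133 and 137 in WT, Smad4-KO replicate 1 at 139 lay level with WT and replicate 2 read 504, for a difference of 0.97 (adjusted p = 0.664 with all probe sets fitted singly). Mki67, which coats mitotic chromosomes and is the Ki-67 proliferation marker, read 499 and 411 in WT, against 1287 and 2131 in Smad4-KO. Its log2 difference was 1.87 ± 0.37 (95% interval 0.94 to 2.80, adjusted p = 0.0496). Smad4-KO replicate 2 was the higher array of its genotype for both genes.

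The kinase that drives entry into mitosis rose as well. Cdk1 read 201 and 135 in WT, compared with 542 and 694 in Smad4-KO, with a log2 difference of 1.90 ± 0.35 (95% interval 1.013 to 2.779, adjusted p = 0.0418). Ccna2, the cyclin that binds Cdk2 in S phase and Cdk1 before mitosis, read 398 on both WT arrays and 819 and 1159 in Smad4-KO. The groups did not overlap, and the difference of 1.29 ± 0.33 did not pass (adjusted p = 0.0913). Ccnb2, a B-type cyclin partner of Cdk1, read 171 and 60.3 in WT, against 271 and 240.3 in Smad4-KO. The WT arrays differed widely from each other, and the difference of 1.33 ± 0.54 did not pass (adjusted p = 0.270).

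The calls of Top2a, Mki67 and Cdk1 depended on the processing, although their differences stayed positive under all 17 alternatives that refit the data. Top2a passed under 8 of the 17 (adjusted p from 0.0176 to 0.508), Cdk1 under 6 (0.0215 to 0.224) and Mki67 under 6 (0.0262 to 0.244). Leaving out WT replicate 1, WT replicate 2 or Smad4-KO replicate 2 left 0 mitotic members past the threshold in limma (19, 12 and 16 at an unadjusted p under 0.05), and without Smad4-KO replicate 1 Mki67 alone passed (adjusted p = 0.0411). With the labelling pairs as a block the differences stayed the same and none of the 3 passed (adjusted p = 0.0807 for Top2a, 0.0688 for Cdk1 and 0.0753 for Mki67). In that limma fit 0 of all 13645 genes passed, with a lowest adjusted p of 0.0557, and with no filter 0 of 18193 passed. In the fits with an array left out, a genotype with 1 array is assumed to vary like the other.

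The spindle checkpoint holds chromosomes back until each kinetochore is attached, and its 5 members with the kinetochore genes all had both Smad4-KO arrays above both WT arrays, with a median log2 difference of 1.70 and 0 past the threshold (4 at an unadjusted p under 0.05). Bub1b, which encodes BubR1, read 21.98 and 106 in WT, compared with 267 and 261 in Smad4-KO. Its difference was 2.45 ± 0.75 (adjusted p = 0.145), and with signals under 64 raised to 64 it was 1.68, below those of Cdk1, Mki67 and Top2a. A second Bub1b probe set gave 1.30. Bub1, a checkpoint kinase, read 99.0 and 39.7 in WT, against 239.6 and 245 in Smad4-KO (1.95 ± 0.49, adjusted p = 0.0913). For both genes the Smad4-KO arrays lay close together and the WT arrays lay far apart.

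Cenpe, the kinetochore motor that carries chromosomes to the spindle equator, read 56.5 and 90.9 in WT, compared with 226 and 239 in Smad4-KO (1.70 ± 0.36, adjusted p = 0.0575), and it passed with the floor of 64 (adjusted p = 0.0460). Ttk, the kinase Mps1 that starts checkpoint signalling, read 61.0 and 85.6 in WT, against 162 and 142 in Smad4-KO (1.07 ± 0.33, adjusted p = 0.147). Cenpf, a large kinetochore protein, read 160.0 and 309 in WT, compared with 389.8 and 349 in Smad4-KO (0.73 ± 0.41, adjusted p = 0.446). The higher WT array of Cenpf came within a short distance of the lower Smad4-KO array.

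The chromosomal passenger complex corrects faulty attachments and guides cytokinesis. Birc5, the gene of survivin, read 174 and 120 in WT, against 426 and 567 in Smad4-KO. Its difference of 1.77 ± 0.35 just missed the threshold (adjusted p = 0.0503), and it passed with a floor of 64 on the signals (adjusted p = 0.0455). Cdca8, which encodes borealin, read 364 and 224 in WT, compared with 613 and 1065 in Smad4-KO (1.502 ± 0.43, adjusted p = 0.127). Dimmer Cdca8 probe sets gave 2.48 and 0.91. Aurkb, the kinase of the complex, read 89.0 and 89.2 in WT, against 123 and 131 in Smad4-KO (0.51 ± 0.29, adjusted p = 0.449). So within the complex all 3 genes stood higher on both Smad4-KO arrays, as did 25.9% of all genes tested. None of the 3 passed in limma (2 at an unadjusted p under 0.05).

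Among spindle and cytokinesis genes, 8 of 9 had both Smad4-KO arrays above both WT arrays (25.9% of all genes tested). In limma 0 of the 9 passed (7 were higher at an unadjusted p under 0.05). Kif11, the motor Eg5 that pushes spindle poles apart, read 83.5 and 42.9 in WT, compared with 219 and 237 in Smad4-KO (1.93 ± 0.41, adjusted p = 0.0595). It passed with signals under 64 raised to 64 (adjusted p = 0.0385). Hmmr, a spindle protein and hyaluronan receptor, read 145 and 81.4 in WT, against 251 and 452 in Smad4-KO (1.63 ± 0.46, adjusted p = 0.121). Prc1, which bundles microtubules of the central spindle, read 232 and 198 in WT, compared with 459 and 647 in Smad4-KO (1.35 ± 0.33, adjusted p = 0.0862).

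Aurka, a kinase of the spindle poles, read 102 and 91.1 in WT, against 196 and 302 in Smad4-KO (1.34 ± 0.35, adjusted p = 0.0984). Plk1, a kinase with roles from spindle assembly to cytokinesis, read 115 and 38.8 in WT, compared with 161 and 189 in Smad4-KO (1.38 ± 0.56, adjusted p = 0.265). Kif20a, a motor of the central spindle, read 62.8 and 54.4 in WT, against 124 and 154 in Smad4-KO (1.24 ± 0.31, adjusted p = 0.0888). Of these genes Plk1 had the widest gap between the WT arrays.

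Tpx2, which activates the kinase Aurora A on the spindle, read 128 and 89.1 in WT, compared with 245 and 199.6 in Smad4-KO (1.05 ± 0.34, adjusted p = 0.169). Dimmer Tpx2 probe sets gave 1.62, -0.24 and -0.24, with overlapping groups for the negative ones. Nusap1, a microtubule-binding protein of the spindle, read 219 and 245 in WT, against 479 and 409 in Smad4-KO (0.93 ± 0.30, adjusted p = 0.167). On their brightest probe sets Tpx2 and Nusap1 were higher on Smad4-KO replicate 1 than on replicate 2, unlike Mki67 and Top2a.

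Anln ran the other way. It encodes anillin, a scaffold that ties actin and myosin to the cleavage furrow and also binds actin filaments outside division. The brightest probe set read 1807 and 1671 in WT, compared with 1201 and 1111 in Smad4-KO, with no overlap, and the difference of -0.59 ± 0.29 did not pass (adjusted p = 0.375). A dimmer Anln probe set read 288 and 277 in WT, against 113 and 99.8 in Smad4-KO, with a difference of -1.41 (adjusted p = 0.142 with all probe sets fitted singly). The direction of Anln was negative under all 17 alternatives. It was the one negative difference among the mitotic members, and contractile smooth muscle markers were lower in the same arrays (10 of 10 negative). Their part in this result was not tested.

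The anaphase-promoting complex ends mitosis by marking cyclin B and securin for breakdown. Cdc20, its activator, read 446 and 254 in WT, compared with 678 and 1518 in Smad4-KO (1.59 ± 0.52, adjusted p = 0.169). Ube2c, the ubiquitin-conjugating enzyme that works with it, read 224 and 139 in WT, against 438 and 662 in Smad4-KO (1.61 ± 0.40, adjusted p = 0.0876). On these probe sets both genes were highest on Smad4-KO replicate 2 and lowest on WT replicate 2. A plain _at probe set of Cdc20 read 205 and 262 in WT, against 319 and 400.5 in Smad4-KO, and its difference was 0.63, with WT replicate 1 the lowest array.

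Foxm1, the transcription factor that drives many of the mitotic members, did not stand apart on its brightest probe set. That probe set read 151 and 170.5 in WT, compared with 134 and 198 in Smad4-KO, with overlapping groups, and the difference was 0.02 ± 0.34 (95% interval -0.82 to 0.87, adjusted p = 0.986). A dimmer Foxm1 probe set of the _x_at type, which can hold probes shared with other transcripts, read 46.6 and 11.3 in WT, against 98.6 and 108 in Smad4-KO, with a difference of 2.17 (adjusted p = 0.283 with all probe sets fitted singly). With signals under 64 raised to 64 that difference was 0.69. The sign on the brightest probe set was negative after quantile normalization, cyclic loess or median centring.

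**Figure D2:**
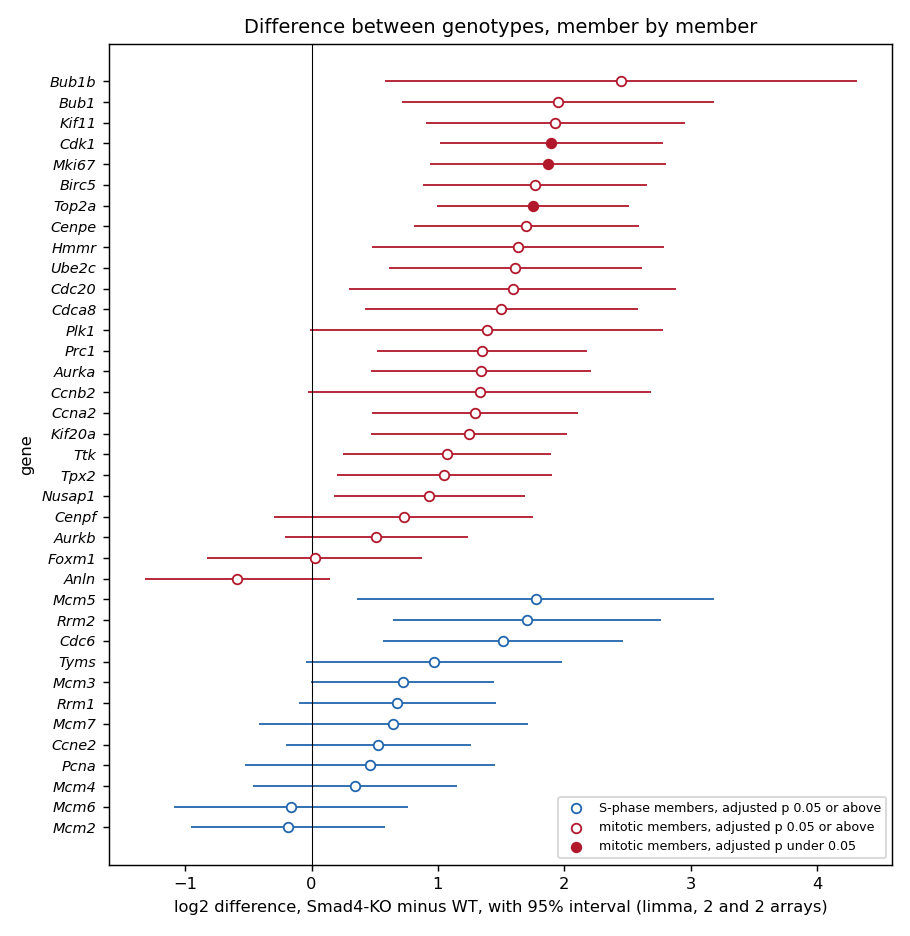
Log2 difference of each member gene, Smad4-KO minus WT, with its 95% interval from limma over 2 and 2 arrays, mitotic genes above and S-phase genes below. Filled points passed an adjusted p of 0.05 (Top2a, Mki67 and Cdk1), and intervals of 19 mitotic and 3 S-phase genes lay wholly above 0.

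S-phase members varied in sign and size. The MCM helicase, a ring of 6 different subunits that unwinds DNA at the replication fork, had differences from -0.19 to 1.77 with a median of 0.50. For 3 of the 6 genes both Smad4-KO arrays lay above both WT arrays (25.9% of all genes tested). None passed in limma, and 1 had an unadjusted p under 0.05. Mcm5 read 430.4 and 179 in WT, compared with 676 and 1332 in Smad4-KO (1.77 ± 0.56, adjusted p = 0.161). Mcm3 read 392 and 371 in WT, against 634 and 623 in Smad4-KO (0.72 ± 0.29, adjusted p = 0.263). Mcm4 read 789.9 and 671 in WT, compared with 1069 and 801 in Smad4-KO (0.35 ± 0.32, adjusted p = 0.696). For Mcm3 the replicates lay close together, and for Mcm5 each genotype spread over a wide range.

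Mcm7 read 1447 and 872 in WT, against 1367 and 2268 in Smad4-KO, with overlapping groups (0.65 ± 0.43, adjusted p = 0.530). Mcm6 read 962 and 1577 in WT, compared with 1210.2 and 999 in Smad4-KO, also overlapping (-0.16 ± 0.37, adjusted p = 0.894). Mcm2 read 755 and 779 in WT, against 599 and 759.5 in Smad4-KO (-0.19 ± 0.31, adjusted p = 0.850). A dimmer Mcm2 probe set, whose name does not mark it as shared between genes, gave another picture: 135 and 81.1 in WT, 339 and 277 in Smad4-KO, and a difference of 1.55 (adjusted p = 0.181 with all probe sets fitted singly). Subunits of this complex thus had differences of either sign on their brightest probe sets, none past the threshold, and for Mcm2 the sign depended on the probe set. With _s_at and _x_at probe sets left out, which can hold probes shared with other transcripts, Mcm2 gave 1.55, Mcm3 1.32 and Mcm5 1.39. Mcm7 then gave 0.58, Mcm4 0.35 and Mcm6 -0.16. In that fit 0 S-phase members passed in limma (5 at an unadjusted p under 0.05).

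On their brightest probe sets, enzymes of nucleotide supply all had both Smad4-KO arrays above both WT arrays (25.9% of all genes tested). None of these enzymes passed in limma (1 at an unadjusted p under 0.05). Rrm2, the regulated subunit of ribonucleotide reductase, read 463 and 374 in WT, compared with 968 and 1908 in Smad4-KO (1.71 ± 0.42, adjusted p = 0.0876). It passed without Smad4-KO replicate 1 (adjusted p = 0.0432) but not without WT replicate 1 (0.224), WT replicate 2 (0.356) or Smad4-KO replicate 2 (0.171). Rrm1, the more stable large subunit, read 588 and 545 in WT, against 799 and 1028 in Smad4-KO (0.68 ± 0.31, adjusted p = 0.329). A dimmer Rrm1 probe set read 78.4 and 235 in WT, against 263 and 81.3 in Smad4-KO, with overlapping groups and a difference of 0.11. With the mean of probe sets the Rrm1 difference was also 0.11. Tyms, thymidylate synthase, read 30.2 and 45.5 in WT, compared with 56.4 and 93.3 in Smad4-KO (0.97 ± 0.40, adjusted p = 0.280). Tyms signals lay near the filter on low signal, and with the floor of 64 it was not tested.

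Cdc6, which loads the helicase onto origins, read 37.2 and 45.2 in WT, against 90.04 and 152 in Smad4-KO (1.52 ± 0.38, adjusted p = 0.0892). With signals under 64 raised to 64 its difference was 0.87. Ccne2, the cyclin E2 gene of S-phase entry, read 154 and 169 in WT, compared with 236 and 229 in Smad4-KO (0.53 ± 0.29, adjusted p = 0.436). Pcna, the sliding clamp of DNA polymerases, read 3673 and 3659.9 in WT, against 6877 and 3708 in Smad4-KO (0.46 ± 0.39, adjusted p = 0.660). Its difference rested on Smad4-KO replicate 1, since replicate 2 lay next to the WT arrays.

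Replicates were compared within each genotype. Over the 7279 genes tested whose mean signal lay between 106 and 974, the range of most members, log2 differences between replicates had an SD of 0.61 in WT and 0.86 in Smad4-KO. Smad4-KO replicate 2 read above replicate 1 for 18 of 25 mitotic members, with a median excess of 0.28, and WT replicate 2 read above replicate 1 for 8 of 25, with a median of -0.22. Their summed signal was 6277 and 5440.4 in WT, compared with 10816 and 14351 in Smad4-KO, lowest in WT replicate 2 and highest in Smad4-KO replicate 2. Pairing single arrays, the median difference of the mitotic members was 0.99 between the replicates numbered 1 and 1.73 between those numbered 2. Within the pairs that match on the labelling controls it was 1.51 (Smad4-KO replicate 2 and WT replicate 1) and 1.42 (Smad4-KO replicate 1 and WT replicate 2). The S-phase median lay between 0.63 and 0.83 in the 4 pairs, and the median over all genes between -0.03 and 0.07.

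**Figure D3:**
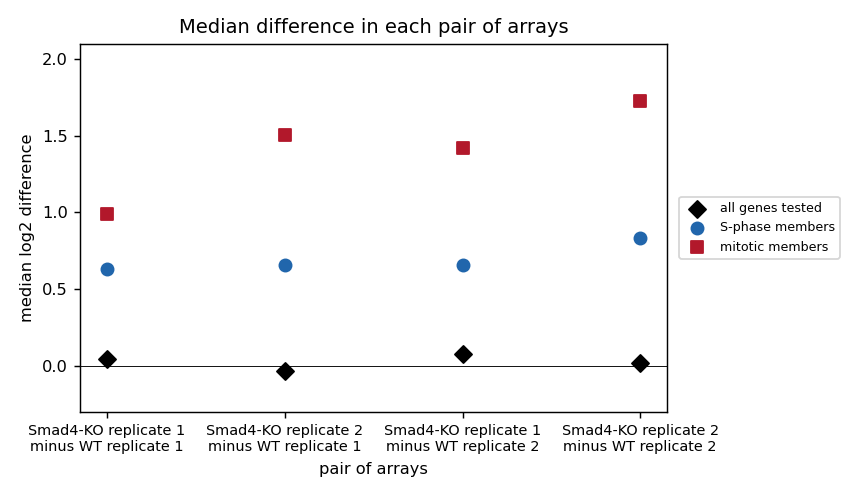
Median log2 difference in each of the 4 pairs of 1 Smad4-KO and 1 WT array, for the mitotic members (squares), the S-phase members (circles) and all genes tested (diamonds). The mitotic median runs from 0.99 to 1.73, the S-phase median from 0.63 to 0.83, and all genes stay between -0.03 and 0.07. Pairs share arrays and are not replicates.

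Probe sets of the same gene gave a check on the choice of the brightest. Of the 88 member probe sets, 26 of 32 S-phase and 44 of 56 mitotic probe sets passed a filter at the 25th percentile of probe sets. In a limma fit of all 26209 probe sets so kept, 0 member probe sets passed (7 S-phase and 28 mitotic ones were higher and 0 and 1 lower at an unadjusted p under 0.05), where 0.702% of all probe sets passed as higher, 0.0801% as lower and 9.43% were higher at that unadjusted p. The median difference was 0.63 for S-phase and 1.32 for mitotic probe sets. Both Smad4-KO arrays lay above both WT arrays for 18 of the 26 and 38 of the 44. Over all genes tested, each on its brightest probe set, that share was 25.9%, and the share over all probe sets was not counted.

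Probe sets of a gene mostly shared a sign. Among genes with several probe sets tested, 7 of 8 S-phase and 13 of 14 mitotic genes had differences of the same sign throughout. The exceptions were Mcm2, from -0.19 to 1.55, and Tpx2, from -0.24 to 1.62. Sizes differed more: in 2 S-phase and 5 mitotic genes the probe sets lay over 1 apart on the log2 scale, as for Kif11, from 0.25 to 1.93. Probe sets named _s_at or _x_at can hold probes shared with other transcripts, and they were the brightest for 5 of 12 S-phase and 4 of 25 mitotic genes. With all such probe sets left out, an alternative chosen after seeing the data, the medians were 0.82 and 1.36, and 2 mitotic genes passed, Cdk1 and Top2a.

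**Figure D4:**
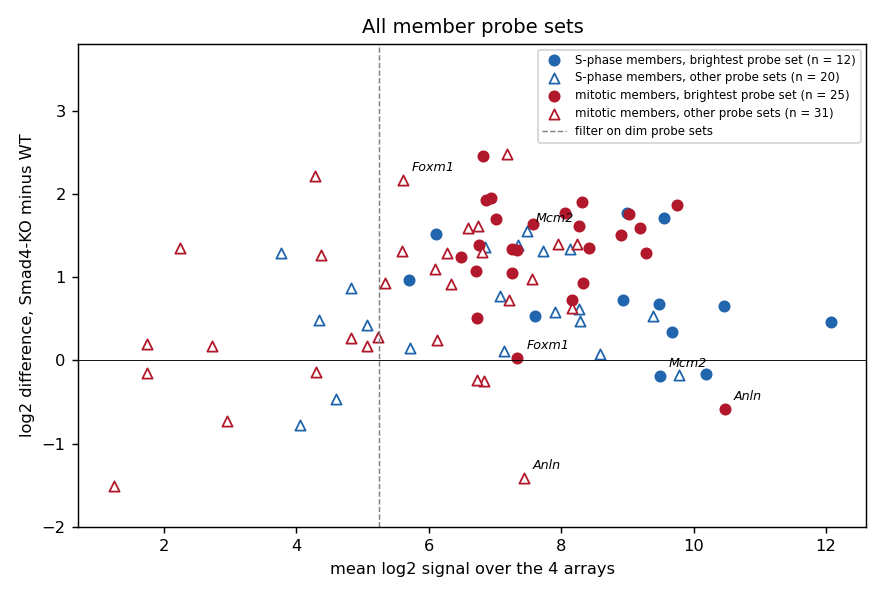
All 88 member probe sets, with mean log2 signal over the 4 arrays on the horizontal axis and the log2 difference, Smad4-KO minus WT, on the vertical axis. Filled circles are the brightest probe set of a gene, open triangles the others, and the dashed line is the filter on dim probe sets. Both Anln probe sets lie below 0, and the labelled pairs of Mcm2 and Foxm1 lie far apart.

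Cell cycle genes outside the members were read from lists of textbook genes. Of 41 other mitosis genes tested, 5 passed as higher and 0 as lower, with 39 of 41 differences positive and a median of 1.14. At an unadjusted p under 0.05 in limma, 25 of the 41 were higher. Of all genes tested, 4.92% passed as higher and 13.1% were higher at that unadjusted p. Stmn1, a microtubule regulator also abundant in neurons, read 1915 and 1044 in WT, against 5403 and 7483 in Smad4-KO (2.17 ± 0.42, adjusted p = 0.0460). Hmgb2, a chromatin protein of dividing cells, rose 4.24-fold, Cep55, an abscission protein, 3.76-fold, and Spc25, a kinetochore protein, 2.97-fold. Depdc1a, with WT signals of 44.5 and 41.1, had a difference of 1.67, but with signals under 64 raised to 64 it was 1.09 and did not pass (adjusted p = 0.106). The WT mean of Depdc1a (log2 5.42) lay below the cut of the filter on low signal (5.64), so it was tested only through its Smad4-KO signals.

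Of 34 other replication genes 3 rose and 0 fell, where 4.92% of all genes passed as higher, with 25 of 34 differences positive and a median of 0.59. At an unadjusted p under 0.05 in limma, 10 of the 34 were higher, and 13.1% of all genes. Tk1, the thymidine kinase of S phase, read 46.2 and 17.7 in WT, compared with 215 and 157 in Smad4-KO (2.68 ± 0.53, adjusted p = 0.0480). Pole, the leading-strand polymerase, read 44.9 and 43.8 in WT, with a difference of 2.06 ± 0.30 (adjusted p = 0.0244). With signals under 64 raised to 64, both genes still passed, at differences of 1.52 for Tk1 and 1.53 for Pole. Their WT means (log2 4.84 and 5.47) lay below the cut of the filter on low signal (5.64). Both were thus tested only through their Smad4-KO signals. Dbf4, the activator of the origin-firing kinase Cdc7, rose 3.06-fold. The lists thus had the same order of medians as the members, mitosis above replication, and that order was not tested.

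**Figure D5:**
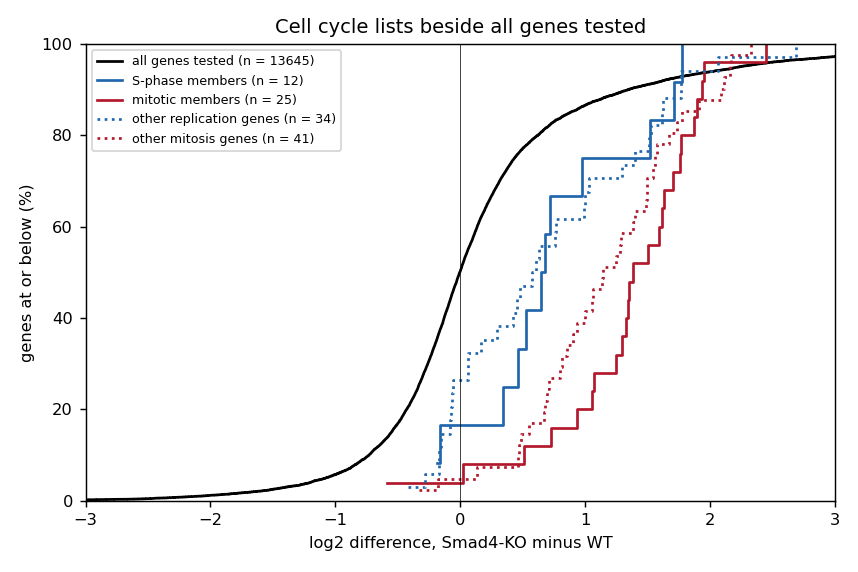
Share of genes at or below each log2 difference, Smad4-KO minus WT, for all 13645 genes tested (black), the members (solid lines) and the other replication and mitosis genes (dotted lines). The mitotic members cross 50% near their median of 1.38 and the other mitosis genes near 1.14, while all genes cross it at -0.01.

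Regulators upstream of these genes were read next. Of 18 E2F, pocket protein, MuvB and Myb genes and Myc, 1 rose and 0 fell, with a median of 0.02 (5 higher and 1 lower at an unadjusted p under 0.05). Among all genes tested, 4.92% passed as higher and 13.1% were higher at that unadjusted p. Both Smad4-KO arrays lay above both WT arrays for 7 of the 18 (25.9% of all genes) and below them for 2 (21.4% of all genes). The rise was that of Myc, a growth-promoting transcription factor, from 108 and 105 in WT to 487 and 570.5 in Smad4-KO (2.31 ± 0.30, adjusted p = 0.0191). Of 12 CDK inhibitors, D-type cyclins and their kinases, 0 passed in limma (0 higher and 1 lower at an unadjusted p under 0.05), with a median of 0.24. Ccnd2, a D-type cyclin, read 10622 and 11481 in WT, against 4327 and 5153 in Smad4-KO (-1.23 ± 0.30, adjusted p = 0.0849), and Cdkn1c, the inhibitor p57, had a difference of 0.67 ± 0.30 (adjusted p = 0.311).

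Markers of other cell types were read on the same arrays, where 4.92% of all genes tested passed as higher and 1.39% as lower. Macrophage markers were higher in all 10 tested (median 2.53), and 1 of the 10 averaged under 64 in WT. Ptprc, the phosphatase of all white blood cells, read 820.1 and 747 in WT, compared with 8667 and 11348 in Smad4-KO. Of 6 neutrophil and bone marrow progenitor markers 3 rose (median 3.86), and 3 of the 6 averaged under 64 in WT, with summed signals of 442 to 1540.2 in WT and 13557 to 17583 in Smad4-KO. Mpo, the peroxidase made by neutrophil precursors, read 46.8 and 59.7 in WT, against 278 and 269 in Smad4-KO (2.37 ± 0.31, adjusted p = 0.0193).

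Of 5 lymphocyte markers 1 rose (Cd3d, 2.33 ± 0.37, median of the list 1.66), with summed signals of 396 to 673 in WT and 1377 to 2395 in Smad4-KO. Of 7 nerve cell markers 7 rose (median 5.03), where 4.92% of all genes tested passed as higher, and 1 of the 7 averaged under 64 in WT. Of 4 erythroid markers tested 0 passed in limma (0 at an unadjusted p under 0.05; median -0.41), nor did any of 7 endothelial (median 0.31, 1 at that unadjusted p), 7 fibroblast (median 0.09, 0) and 5 fat cell markers (median -0.07, 1). Of 5 skeletal muscle markers 0 passed (median 1.61, 2 at that unadjusted p), and 1 of 3 Schwann cell markers rose (median 0.58). The make-up of the pools also differed between replicates. Skeletal muscle markers summed to 412 and 361 in WT and to 599 in Smad4-KO replicate 1, but to 5045 in Smad4-KO replicate 2. Endothelial markers summed to 9959 and 9473 in WT. In Smad4-KO they summed to 12171 in replicate 1 and to 5843 in replicate 2, and 0 of 7 were higher in the latter. Fat cell markers summed to 66339.8 and 61040.4 in the arrays numbered 1 and to 29544.5 and 30688 in those numbered 2. Smad4-KO replicate 2 thus stood apart in skeletal muscle and endothelial markers. In fat cell markers its sum lay near that of WT replicate 2, yet Lep and Ucp1 read lowest on it (10.4 and 69.9). Fat cell markers had a median log2 difference, replicate 2 minus replicate 1, of -2.39 in Smad4-KO and -1.19 in WT, with 0 of 5 positive in each. Smad4-KO replicate 2 had the highest summed mitotic signal, and without it the mitotic median was 1.20. White blood cell and nerve cell markers were thus higher on the same arrays as the mitotic members, and their part in the mitotic result was not tested.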

How the data were processed

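Expression was measured on 4 arrays. The authors deposited 1 intensity per probe set and array, not in log form. RMA and Affymetrix Expression Console are named in the submitters' processing notes, yet each array has a trimmed mean of 500, as MAS5 scaling gives. Which of these made the values is not settled, and no genome build is named. Of 45101 probe sets, 64 were controls. Those naming several symbols (932) or none (9160) were left out. Values were taken to log2 and compared with limma 3.58.1 (R 4.3.3), lmFit and eBayes with genotype as the only term, two-sided, adjusted by Benjamini-Hochberg over all genes tested. The fit was tested on simulated data. Python 3.11.15 and pandas 2.3.3 made the tables. The p-values set each difference against variation between these pools of vessels only. In limma a gene's own variation (2 residual degrees of freedom) was combined with that of all genes tested (3.47 prior degrees of freedom).

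The members, lists and tests were chosen with earlier results of these data known, and no set test was run. All members are named, and of other lists at most 6 genes past the threshold, or at most 2 of lowest unadjusted p where none passed. Alternatives were normalization, filters, probe set choice, variance settings, blocks, a floor of 64 and leaving out each array. Promoters come from RefSeq.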

Additional observations from a re-analysis of the deposited data

How the results depend on the processing

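The number of arrays and the dim signal of several members in WT limit these results. Over all genes, 861 passed (672 higher, 189 lower). The count was 1321 (1035 and 286) with the replicate block, 1403 (1057 and 346) at an adjusted p of 0.10, 518 (427 and 91) with the mean of probe sets and 205 (184 and 21) with every probe set by itself. It was 0 in limma with the labelling pairs as a block (2658 at an unadjusted p under 0.05) or with no filter (2788). Leaving out 1 array gave 0 (without WT replicate 2) to 808, with 0 to 632 higher and 0 to 176 lower. Of the mitotic members 3 passed as higher, against 8 with the replicate block (Birc5, Bub1, Bub1b, Cdk1, Cenpe, Kif11, Mki67 and Top2a), 6 with the floor of 64, 12 at an adjusted p of 0.10, 1 after quantile normalization or cyclic loess, and 0 with median centring, the labelling pairs, no filter, the mean of probe sets or every probe set. Leaving out 1 array gave 0 to 1. Of the S-phase members 0 passed, against 1 with the replicate block (Rrm2), 2 at an adjusted p of 0.10 and 0 to 1 without 1 array. Deviations of arrays with the same number correlated at -0.01 across genes, and the replicate block rests on the shared number. Fat cell markers did follow that number, with 0 of 5 higher in replicate 2 than in replicate 1 in either genotype. The labelling pairs use the 3' to 5' ratios.

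The median of both lists was positive under all alternatives, and median centring, which moved the median of all genes to -0.16, gave 1.23 and 0.51. The mitotic median moved beyond the SD between arrays in the pairs of arrays numbered 1 (0.99) and 2 (1.73). Mcm2 turned positive with the mean of probe sets (0.68) or without _s_at and _x_at probe sets (1.55), and Mcm6 with the mean of probe sets (0.32) or without WT replicate 2 (0.19; range -0.52 to 0.19). Foxm1 turned negative after quantile normalization (-0.19), cyclic loess (-0.061) or median centring (-0.13), and without WT replicate 1 (-0.063) or Smad4-KO replicate 2 (-0.26), with a range of -0.26 to 0.30 over the arrays left out. The other 34 of 37 genes kept their sign throughout. The causes were not tested.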
